A study of Mus musculus with 4 samples.

Results

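Malat1 and Neat1 are long noncoding RNAs that stay in the nucleus, and their genes lie next to each other in the mouse genome. They were followed here in Visium sections of mouse liver, 2 genes of the 31253 features in the tables, found by their symbols. The pair was chosen by measured values of these sections, known from earlier work on them, and the choice named the readouts too: the level per section, the levels over bins of lobule zone and of total UMIs, the relation to mitochondrial share and to Cidec, and MASH against MAFL. Those readouts are therefore given as descriptions without a test. Tests are given only for classes of spots that the choice did not use.

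Malat1 is a very abundant RNA of nuclear speckles, the bodies in which splicing factors gather. Its 3′ end is cut by RNase P and is held in a triple helix in place of an ordinary poly(A) tail. Neat1 is the scaffold of paraspeckles, nuclear bodies built around its long form and proteins such as Nono and Sfpq. It is made in a short polyadenylated form and a long form from the same start site, and a count per gene cannot separate the forms. In liver the hepatocytes of a lobule differ by their place along the blood flow, with Cyp2e1, a cytochrome P450, high around the central vein and Cyp2f2, another cytochrome P450, high around the portal vein.

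In Visium, each spot of a slide captures polyadenylated RNA of several neighbouring cells, and each captured molecule is counted once by its unique molecular identifier (UMI). Fresh-frozen livers of 2 models on a diet labelled WD were used. The livers labelled MAFL had 8 weeks of the diet and gave 2 sections, and those labelled MASH had 16 weeks and gave 2 more. Where 4 values are given in a row, they belong to MAFL-1, MAFL-2, then MASH-1 and MASH-2. Model and weeks of diet change together, so they cannot be told apart. The labels used here give no strain, sex, age or genotype and do not tell if each section is from its own animal, so p-values measure the spread between these sections, which may be technical.

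The sections held 1862 to 2467 spots with at least 500 UMIs, at a median of 15430.5 to 25291 UMIs per spot. Sections shared 1182 to 1725 spot barcodes with each other, which in this assay name positions on the slide and not cells. All 8 hepatocyte markers were detected in every section, with a summed level of 77964 to 84367 CPM, the UMIs of a gene per 1000000 UMIs. A level in a spot is a mixture, and fewer cells of a type and less RNA per cell cannot be told apart.

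In the GRCm38.p6 annotation of RefSeq, which is the mm10 build of the files, Malat1 (ENSMUSG00000092341) lies at chr19:5795690-5802672 and Neat1 (ENSMUSG00000092274) at chr19:5824708-5845480. Both are annotated as lncRNA genes, Malat1 with 1 transcript over 6983 bases and Neat1 with 2 over 20773 bases, and 22035 bases separate them. Of the 2 genes, Malat1 has an entry in the RefSeq promoter table. It is printed to show the sequence from which the RNA counted here starts, from 250 bases before to 50 bases after the start site (chr19:5802623-5802922, minus strand, GRCm38.p6), with matches to short motif cores in capitals.
Malat1 promoter: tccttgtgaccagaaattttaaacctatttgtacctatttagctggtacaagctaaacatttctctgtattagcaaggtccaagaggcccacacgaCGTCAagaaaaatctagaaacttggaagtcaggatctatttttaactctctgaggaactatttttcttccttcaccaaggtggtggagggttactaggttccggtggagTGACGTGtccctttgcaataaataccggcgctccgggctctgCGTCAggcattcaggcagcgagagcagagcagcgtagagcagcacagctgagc
The cyclic AMP response element core TGACG, searched on both strands, matched 3 times, with its leftmost base at -154, -45 and -3 from the start site, where 21.0% of 27025 promoters of the same length hold it. The hypoxia response element core ACGTG matched 1 time, at -43, overlapping the TGACG match at -45, and 19.7% of promoters hold it. The TATA box letters TATAAA are not in this window, and 14.2% of promoters hold them. These matches describe the letters only.

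Malat1 was high in 1 section of the 4. Its level was 202 CPM in MAFL-1 (95% Poisson interval 197 to 207), 152 in MAFL-2 (148 to 156), 134 in MASH-1 (132 to 137) and 438 in MASH-2 (431 to 444). These intervals cover counting error only. MASH-2 stood above the other 3 sections and MASH-1 below both MAFL sections, so the groups overlapped and the sections of MASH differed far more than those of MAFL. The means were 177 ± 35.1 CPM in MAFL and 286 ± 214 CPM in MASH (SD, n = 2 each).

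The same section stood apart when UMIs were counted per spot. A spot held a mean of 3.20 Malat1 UMIs in MAFL-1, 3.09 in MAFL-2, 3.48 in MASH-1 and 10.5 in MASH-2. Among all detected genes Malat1 took rank 620, 797, 900 and 334. At least 1 Malat1 UMI was found in 91.5 to 92.6% of the spots of the other 3 sections and in 99.3% of those of MASH-2. Spots of at least 5000 UMIs were then thinned at random to 5000 UMIs, so that each held the same total. These shares then were 60.3% in MAFL-1, 51.1% in MAFL-2, 48.6% in MASH-1 and 83.7% in MASH-2. Thinning does not undo the relation of Malat1 to the depth a spot had before. Spearman's rho of the thinned Malat1 share with that depth was -0.23, -0.16, -0.34 and -0.45.

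Neat1 was lower in both MASH sections than in both MAFL sections. Its level was 234 CPM in MAFL-1, 251 in MAFL-2, 139 in MASH-1 and 119 in MASH-2. The sections of each group lay close together, at 243 ± 12.5 CPM in MAFL and 129 ± 13.7 CPM in MASH (SD, n = 2 each), a 1.88-fold lower mean in MASH. A spot held a mean of 3.70, 5.10, 3.59 and 2.86 Neat1 UMIs, so per spot MASH-1 lay just under MAFL-1. After thinning, 69.3% and 72.8% of MAFL spots and 50.9% and 46.5% of MASH spots held a Neat1 UMI.

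Groups of 2 sections that do not overlap are common in these data: 52.3% of the 13593 genes tested had no overlap, 18.2% with both MASH sections below both MAFL sections and 34.1% with both above. An exact permutation test of 2 against 2 sections cannot give a two-sided p below 0.3333. In edgeR's fit of whole sections, which called 0.456% of all genes (0.309% higher and 0.147% lower in MASH), the log2 fold change was 0.56 for Malat1 and -1.01 for Neat1, given as a description since this contrast chose the pair. Without MASH-2 the Malat1 value turned to -0.44, while that of Neat1 was -1.21 without MASH-1 and -0.85 without MASH-2. In spots of 15000 to 20000 UMIs, a range that every section holds, Malat1 reached 182, 163, 215 and 635 CPM and Neat1 236, 274, 156 and 151 CPM. At this matched depth both MASH sections were above the MAFL sections for Malat1, unlike over all spots, and below them for Neat1. The order of Malat1 depended on the range. In shallower spots both MASH sections were above both MAFL sections too. Malat1 was 395, 389, 443 and 870 CPM at 5000 to 10000 UMIs and 234, 194, 290 and 784 CPM at 10000 to 15000 UMIs. At 20000 to 30000 UMIs Malat1 was 152, 140, 143 and 470 CPM, so the groups overlapped. From 30000 UMIs on, Malat1 was 119, 109, 85.1 and 254 CPM, with MASH-1 below both MAFL sections. The shares of all genes without overlap given above are for all spots.

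**Figure D1:**
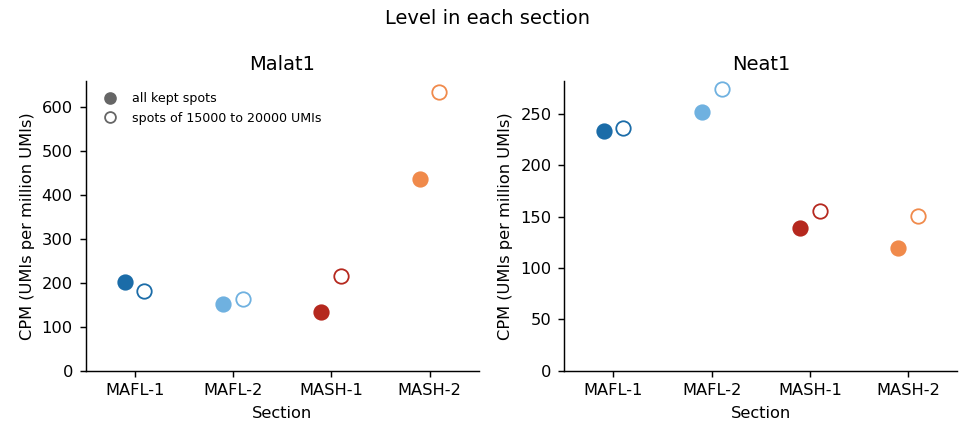
CPM of Malat1 (left) and Neat1 (right) in each section, over all kept spots (filled points) and over spots of 15000 to 20000 UMIs (open points). Malat1 in MASH-2 stands at 438 and 635 CPM, above the other sections, and Neat1 is lower in both MASH sections (119 to 156 CPM) than in both MAFL sections (234 to 274 CPM).

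Malat1 was more unevenly spread over spots than Neat1 in each section. In spots thinned to 5000 UMIs, where a molecule placed at random would give a variance equal to the mean, the ratio of variance to mean was 1.64, 1.42, 1.49 and 2.63 for Malat1. For Neat1 it was 1.02, 1.05, 1.03 and 1.14. The ratio of Malat1 was above that of Neat1 in every section. It grows with the mean, which was 1.09, 0.802, 0.799 and 2.76 Malat1 UMIs per thinned spot. The excess of the ratio over 1 divided by that mean was 0.59, 0.53, 0.61 and 0.59 for Malat1. By that measure MASH-2 was no more uneven in Malat1 than the others. For Neat1 the same measure was 0.014, 0.035, 0.048 and 0.209, below that of Malat1 in every section and highest in MASH-2. Up to 76 Malat1 UMIs were counted in a single spot of MASH-2, against 18 to 26 in the other sections and 13 to 17 for Neat1 in any section.

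Along the lobule, the 2 RNAs behaved differently in MAFL and more alike in MASH-2. Spots were ranked in each section by the log2 ratio of Cyp2f2 to Cyp2e1 UMIs (each plus 1) into 10 bins, from the pericentral side (bin 1) to the periportal side (bin 10). Malat1 was alike at both ends in MAFL, with 188 CPM in bins 1 to 3 against 198 in bins 8 to 10 of MAFL-1 and 151 against 143 in MAFL-2. It was highest in between, in bin 7 of both: 243 CPM (95% Poisson interval 226 to 261) in MAFL-1, against 176 (162 to 191) in bin 1, and 178 CPM (164 to 191) in MAFL-2, against 135 (125 to 146) in bin 10. These are the highest and lowest bins of each section. Bins 6 and 8 were at 226 and 215 CPM in MAFL-1 but at 143 and 145 CPM in MAFL-2, where bin 7 stood alone. Malat1 was higher on the pericentral side in MASH, with 157 against 98.5 CPM in MASH-1 and 652 against 271 CPM in MASH-2. As the log2 ratio of bins 8 to 10 over bins 1 to 3, these are 0.07, -0.07, -0.67 and -1.27.

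Neat1 was higher on the pericentral side in all 4 sections. It stood at 253 against 210 CPM in MAFL-1, 280 against 221 in MAFL-2, 146 against 127 in MASH-1 and 157 against 88.7 in MASH-2. The log2 ratios were -0.26, -0.34, -0.21 and -0.83. The Neat1 level of MASH spots stayed below that of MAFL spots of the same bin along the whole axis, while Malat1 in MASH-2 went from 612 CPM in bin 1 to 202 CPM in bin 10, where MAFL-1 had 192.

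**Figure D2:**
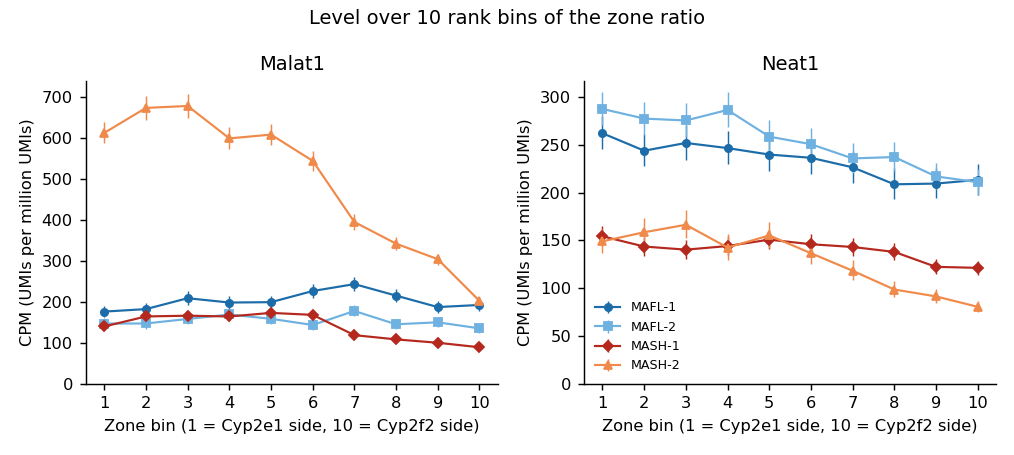
CPM of Malat1 (left) and Neat1 (right) over 10 rank bins of the zone ratio in each section, with 95% Poisson intervals as bars. Malat1 of MASH-2 runs from 612 CPM in bin 1 to 202 CPM in bin 10, and Neat1 is lower toward bin 10 in every section. Malat1 of the 2 MAFL sections is highest in bin 7 (243 and 178 CPM) and alike at both ends. In MAFL-2 that bin stands alone, between 143 and 145 CPM in bins 6 and 8.

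Among genes with at least 1000 UMIs in a section, 1.16% had a lower zone ratio than Malat1 in MASH-2 and 3.29% in MASH-1, so it stood near the pericentral end there. In MAFL-1 and MAFL-2 the shares were 69.6% and 34.8%, in the middle range of all genes. For Neat1 the shares were 10.6%, 5.94%, 19.5% and 2.49%.

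Zone and depth were linked in these sections. Spearman's rho of the zone ratio with total UMIs over spots was -0.03 in MAFL-1, 0.22 in MAFL-2, 0.36 in MASH-1 and 0.55 in MASH-2, so periportal spots of MASH held more UMIs. Ranked by zone within 5 bins of total UMIs, Malat1 had log2 ratios of 0.10, 0.11, -0.11 and -0.58. For Neat1 it was -0.27, -0.30, -0.11 and -0.49. The pericentral side of MASH-2 thus kept the higher CPM of both RNAs within these bins, at a smaller ratio. Depth still varied within a bin, and the part of that in the remaining ratio was not tested. In UMIs per spot in place of CPM, the MASH-1 and MASH-2 log2 ratios were -0.18 and -0.21 for Malat1, and 0.28 and 0.23 for Neat1, so the direction for Neat1 in MASH was opposite on that scale. The 14 endothelial markers, summed, were also higher on the pericentral side, at 743 against 433 CPM in MASH-2 and 496 against 394 CPM in MAFL-1. Their part in the zone ratios was not tested.

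The clearest pattern of Malat1 within sections was its relation to the total UMIs of a spot. Malat1 UMIs per spot differed far less between depth bins than total UMIs did: from the 10% of spots with the fewest UMIs to the 10% with the most, the mean went from 3.45 to 3.68 in MAFL-1, 2.61 to 3.62 in MAFL-2, 3.33 to 2.98 in MASH-1 and 7.01 to 9.95 in MASH-2. In MASH-2 the mean was highest between these ends, at 11.6 in bins 5 and 8. Over the same bins the median total UMIs of a spot went from 7568 to 25291 in MAFL-1 and from 8715 to 52217.5 in MASH-2. Malat1 in CPM therefore went from 492 to 139 in MAFL-1, 279 to 109 in MAFL-2, 369 to 66.9 in MASH-1 and 852 to 186 in MASH-2. Its level in CPM was lower in the deeper bins of every section.

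Neat1 UMIs per spot were higher in deeper spots. The mean went from 1.91 to 5.26 in MAFL-1, 2.92 to 6.78 in MAFL-2, 1.55 to 5.48 in MASH-1 and 1.52 to 4.27 in MASH-2 between the lowest and the highest bin. Its CPM was lower in the deepest bin than in the shallowest too, at 272 against 199 in MAFL-1, 312 against 204 in MAFL-2, 172 against 123 in MASH-1 and 185 against 79.8 in MASH-2 (lowest against highest bin).

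**Figure D3:**
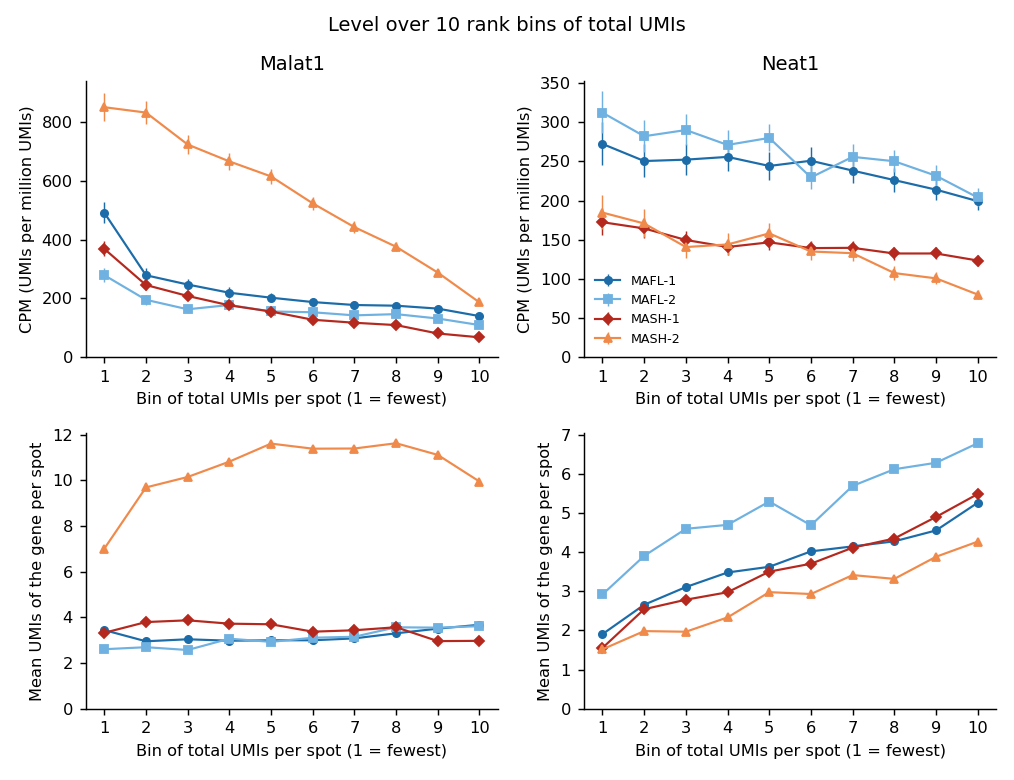
CPM (top) and mean UMIs per spot (bottom) of Malat1 (left) and Neat1 (right) over 10 rank bins of total UMIs in each section, with 95% Poisson intervals as bars in the top row. Malat1 per spot stays between 2.57 and 3.87 outside MASH-2 while its CPM is lower in deeper bins, and Neat1 per spot is higher in deeper bins of every section.

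As the log2 ratio in CPM of bins 8 to 10 over bins 1 to 3 of total UMIs, Malat1 stood at -1.0, -0.67, -1.62 and -1.58 and Neat1 at -0.28, -0.37, -0.31 and -0.79. The median over genes with at least 1000 UMIs was -0.05, -0.03, -0.03 and -0.06. Only 0.35%, 0.576%, 0.318% and 0.741% of these genes had a lower ratio than Malat1, against 3.1%, 2.26%, 7.42% and 1.98% for Neat1. Shallow spots also differed in other ways: the 4 haemoglobin genes summed to 4482 CPM in bins 1 to 3 against 1347 CPM in bins 8 to 10 of MAFL-1 and to 3578 against 684 CPM in MASH-2, and the 8 hepatocyte markers were lower in the shallow bins of all 4 sections (73757 against 81818 CPM in MAFL-1, 67858 against 94501 CPM in MASH-2). The part of these in the depth ratios was not tested. Ranked by depth within 5 bins of the zone ratio, the log2 depth ratios of Malat1 were -0.96, -0.66, -1.38 and -0.99. Those of Neat1 were -0.31, -0.31, -0.23 and -0.35, so the ratios of both RNAs in MASH-2 were smaller in size than without the zone bins.

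The other RNAs known to stay largely in the nucleus allowed a comparison. Of 12 such genes listed, 7 were found in the tables, and 3 had enough UMIs for a ratio in every section. Kcnq1ot1, the noncoding RNA of an imprinted domain, had log2 depth ratios of -1.26, -0.67, -1.23 and -1.36, close to those of Malat1. It is transcribed antisense within Kcnq1, and the counting of strands is not given in the sources used here. Mlxipl, which codes for the carbohydrate-response factor ChREBP and whose mRNA is held in liver nuclei, had -0.24, -0.25, -0.15 and -0.39. Nlrp6, another mRNA held in liver nuclei, had -0.12, -0.20, -0.12 and -0.44, so both mRNAs were nearer to Neat1 than to Malat1. By level, Kcnq1ot1 stood at 8.43, 5.74, 3.60 and 8.75 CPM, with MASH-1 lowest, as for Malat1. Its MASH-2 and MAFL-1 levels were nearly equal, unlike those of Malat1 (438 CPM in MASH-2 and 202 CPM in MAFL-1).

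**Figure D4:**
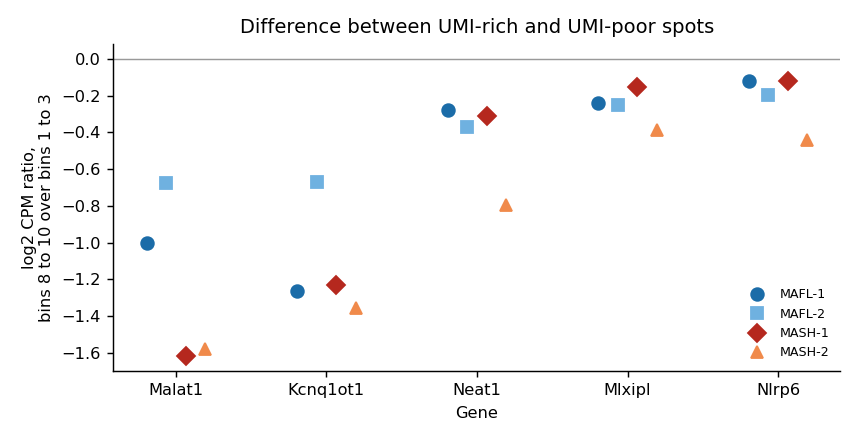
Log2 ratio of CPM in bins 8 to 10 over bins 1 to 3 of total UMIs for Malat1, Kcnq1ot1, Neat1, Mlxipl and Nlrp6, 1 point per section. Malat1 and Kcnq1ot1 lie between -0.67 and -1.62, and the other 3 genes between -0.12 and -0.79.

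Mitochondrially encoded transcripts, which are a rough sign of the state of a spot's RNA, moved with Malat1 in MASH. Over spots thinned to 5000 UMIs, Spearman's rho of Malat1 with the mitochondrial share was -0.05 in MAFL-1, 0.07 in MAFL-2, 0.21 in MASH-1 and 0.36 in MASH-2. For Neat1 it was 0.00, 0.09, 0.02 and 0.14. Between the 3 bins of lowest and the 3 of highest mitochondrial share, Malat1 went from 104 to 208 CPM in MASH-1 and from 273 to 731 CPM in MASH-2, but from 213 to 198 CPM in MAFL-1 and from 147 to 168 CPM in MAFL-2. Neat1 went from 95.6 to 155 CPM in MASH-2 and differed by at most 1.21-fold in the other sections.

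Spots of high mitochondrial share were also shallow in the MASH sections. Their median was 13823.5 UMIs against 34271 for the spots of low share in MASH-2, and rho of the mitochondrial share with total UMIs was 0.07, -0.33, -0.46 and -0.66. The partial rho of Malat1 with the mitochondrial share given total UMIs was -0.03, 0.01, 0.06 and 0.10. The mitochondrial share also differed along the lobule in every section, higher on the pericentral side. Its rho with the zone ratio was -0.63, -0.60, -0.60 and -0.48. Given the zone ratio, the partial rho of Malat1 with the mitochondrial share was -0.05, 0.05, 0.16 and 0.23. All points of a section share 1 library, so these values describe spots and carry no p.

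Cidec, a lipid droplet protein gene that is induced in fatty liver, was counted in 33.2% and 21.4% of MAFL spots and 78.0% and 77.9% of MASH spots. Neither RNA followed it: rho over thinned spots lay between -0.06 and 0.06 for both genes in all sections. In MASH-2, spots with a Cidec UMI held 423 CPM of Malat1 and spots without one 503 CPM, and the latter had fewer total UMIs (a median of 15619 against 21259.5). Malat1 and Neat1 were hardly related to each other from spot to spot either, with rho 0.06, 0.04, 0.05 and 0.16.

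The genes most like each RNA were listed by 2 measures. Over thinned spots, the highest median rho with Malat1 among 1933 genes belonged to mt-Nd4 (0.13), mt-Nd2, mt-Co3, mt-Atp6 and mt-Co2, all subunits of the respiratory chain or ATP synthase encoded in mitochondria. In MAFL-1 each of these 5 values was below 0 (-0.05 to -0.01), and in MASH-2 they were 0.30 to 0.32. For Neat1 they were Mup17 (0.09), Cyp2c37, Cyp2e1, Cyp3a11 and Oat, among them pericentral enzymes. These rho are weak in sparse counts and are no finding.

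Over the 40 points of 4 sections by 10 zone bins, the genes closest to Malat1 among 4177 were the chaperone gene Hsp90ab1 (Pearson r 0.91), the lipase gene Mgll (0.90), Paqr9 (0.89), Lars2 (0.88) and Zbtb20 (0.87). Within MASH-1 and MASH-2 the 5 had r of 0.91 to 0.98 with Malat1. Within MAFL-1 the values were 0.31, -0.21, 0.24, -0.19 and -0.21 in that order, and 0.36 to 0.73 in MAFL-2, so r was higher within the MASH sections than within the MAFL sections for each of the 5. Closest to Neat1 were Lars2, Cebpb, Slco1a1 and Stab2 (each 0.94) and Sult2a8 (0.93), with r of at least 0.83 in every section. Stab2 is a scavenger receptor of sinusoidal endothelial cells. The 2 RNAs had r of 0.80 with each other, made up of -0.24, 0.32, 0.79 and 0.99 within the sections.

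Spot classes that the choice of the genes did not use were tested next. In each section, spots were ranked within 5 bins of total UMIs by the share of a marker list, and the rich and poor ends were summed per section and compared by edgeR with the section as a block. This brought the depths of the classes close, with a median of 15424.5 against 15497 total UMIs in haemoglobin-rich against poor spots of MAFL-1 and of 20154 against 19943.5 in MASH-2, but depth still varies within a bin. Ranking within 20 bins of total UMIs was therefore added after seeing the data.

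Haemoglobin-rich spots held more Malat1. By the 4 haemoglobin genes, which mark blood in the tissue, Malat1 stood at 222 against 198 CPM in MAFL-1, 161 against 148 in MAFL-2, 147 against 120 in MASH-1 and 453 against 394 in MASH-2 (top against bottom of 3 equal classes). It was higher in the rich class in 4 of 4 sections, by 1.12-, 1.09-, 1.23- and 1.15-fold. The edgeR log2 difference was 0.19 (SE 0.03, adjusted p = 5.58e-05), in a comparison that called 0.476% of all genes (0.436% higher). Within 20 bins of total UMIs it was 0.18 (edgeR adjusted p = 0.000411). It was not past the threshold with DESeq2 (adjusted p = 0.125) or without the bins of total UMIs (adjusted p = 0.357), and over all alternatives the adjusted p ran from 2.33e-08 to 0.357. Neat1 was 234 against 223 CPM in MAFL-1, 242 against 256 in MAFL-2, 134 against 143 in MASH-1 and 123 against 108 in MASH-2, with a log2 difference of 0.00 (SE 0.04, edgeR adjusted p = 0.992).

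Other contents of these spots differed as well. The summed endothelial markers were higher in the haemoglobin-rich class of all 4 sections (471 against 418 CPM in MAFL-1, 589 against 502 CPM in MASH-2). The mitochondrial share was 4.10 against 3.87% in MAFL-1, 4.97 against 4.95% in MAFL-2, 3.94 against 3.70% in MASH-1 and 4.94 against 4.73% in MASH-2. The part of either in the Malat1 difference was not tested. When spots were ranked within bins of total UMIs and of the zone ratio, an alternative added after seeing the data, the Malat1 call was kept.

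For endothelial-rich spots, by 14 markers of liver endothelial cells, the Malat1 call depended on the setting, and the difference lay chiefly in MASH-2. Malat1 was 209 against 200 CPM in MAFL-1, 153 against 148 in MAFL-2, 141 against 126 in MASH-1 and 502 against 392 in MASH-2. The log2 difference was 0.13 (SE 0.03, edgeR adjusted p = 0.00571), higher in the rich class in 4 of 4 sections, where 7.68% of all genes were called, 3.75% higher. Without MASH-2 it was 0.066 and was not past the threshold (edgeR adjusted p = 0.182), and it was also lost within 20 bins of total UMIs (0.11, edgeR adjusted p = 0.127), with DESeq2 (adjusted p = 0.278), with library totals as the scaling (edgeR adjusted p = 0.299) and without depth bins (edgeR adjusted p = 0.367). Rich spots were more pericentral, with a median zone ratio of -1.64 against -0.35 in MAFL-1 and -2.96 against -1.83 in MASH-2. Ranked within bins of total UMIs and of the zone ratio, Malat1 was at 0.11 (edgeR adjusted p = 0.0068) and Neat1 at 0.028 (edgeR adjusted p = 0.805).

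Neat1 was 240 against 231 CPM in MAFL-1, 255 against 245 in MAFL-2, 140 against 136 in MASH-1 and 140 against 106 in MASH-2 in endothelial-rich against poor spots. Its log2 difference was 0.09 (SE 0.05, edgeR adjusted p = 0.438). It passed the threshold without MASH-1 (0.13, edgeR adjusted p = 0.00701), where MASH-2 was 1 of 3 sections. The direction was the same in 4 of 4 sections, but the size outside MASH-2 was at most 1.04-fold.

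Fibroblast-rich spots were compared by 8 genes of stellate cells and fibroblasts, as the top 10% against the bottom 50% of spots. Neat1 stood at 242 against 233 CPM in MAFL-1, 246 against 254 in MAFL-2, 139 against 139 in MASH-1 and 118 against 124 in MASH-2. These values are nearly flat, and the edgeR log2 difference of -0.14 (SE 0.05, adjusted p = 0.0492, with 14.7% of all genes called) rests on the scaling: with library totals it was -0.01 (adjusted p = 0.876), and the median over all genes moved from -0.02 to 0.11. The call was also lost when any section was left out. Malat1 was 263 against 190 CPM in MAFL-1, 159 against 151 in MAFL-2, 146 against 129 in MASH-1 and 440 against 449 in MASH-2, with a log2 difference of 0.04 (SE 0.08, edgeR adjusted p = 0.817).

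Lipid-associated macrophages are the Trem2- and Gpnmb-expressing macrophages of fatty liver. In spots rich in 12 of their genes, Malat1 was 225 against 198 CPM in MAFL-1, 156 against 149 in MAFL-2, 141 against 133 in MASH-1 and 389 against 470 in MASH-2. Neat1 was 243 against 230 CPM in MAFL-1, 254 against 251 in MAFL-2, 150 against 137 in MASH-1 and 101 against 128 in MASH-2. Both RNAs were thus higher in the rich spots of 3 sections and lower in those of MASH-2. The log2 difference was -0.09 for Malat1 (edgeR adjusted p = 0.567) and -0.12 for Neat1 (edgeR adjusted p = 0.418), with 6.14% of all genes called. Of the 12 genes, 1 had no UMI in MAFL-1. Rich spots were more pericentral in MAFL and more periportal in MASH, with a median zone ratio of -1.91 against -2.61 in MASH-2. Ranked within bins of total UMIs and of the zone ratio, Malat1 was at -0.11 and Neat1 at -0.16, neither past the threshold. The mitochondrial share was 4.23 against 5.14% in MASH-2, and its part was not tested.

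Spots rich in Thrsp, a gene of hepatic lipogenesis, had 197 against 206 CPM of Malat1 in MAFL-1, 148 against 162 in MAFL-2, 136 against 130 in MASH-1 and 416 against 464 in MASH-2. The log2 difference was -0.09 (SE 0.03, edgeR adjusted p = 0.377), in a comparison that called 0.389% of all genes. It passed the threshold when spots were also matched for the zone ratio (-0.12, edgeR adjusted p = 0.00242), an alternative added after seeing the data. For Neat1 the log2 difference was 0.01 (SE 0.03, edgeR adjusted p = 0.967).

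**Figure D5:**
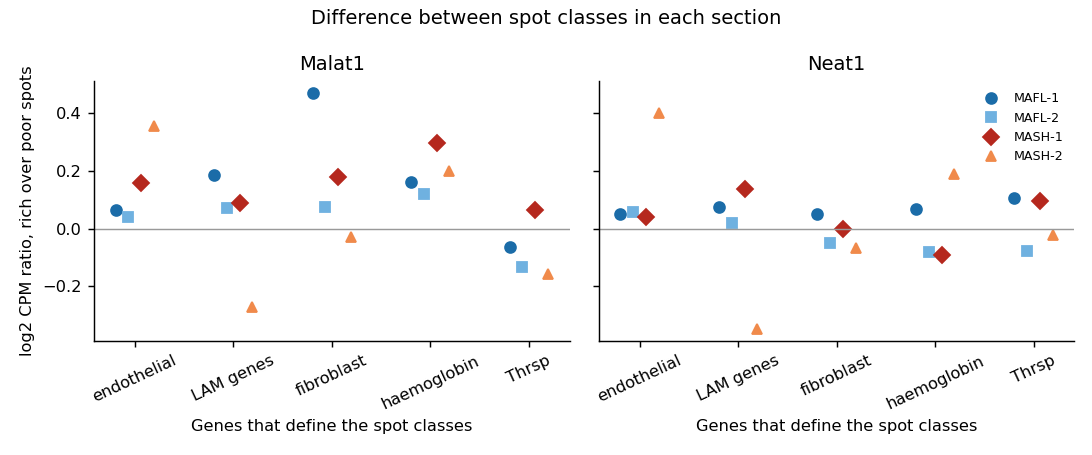
Log2 ratio of CPM in rich over poor spots for Malat1 (left) and Neat1 (right) in each section, for the 5 pairs of spot classes, 1 point per section (LAM genes: lipid-associated macrophage genes). Malat1 is above 0 in all 4 sections for haemoglobin-rich (0.12 to 0.30) and endothelial-rich spots (0.04 to 0.36), and MASH-2 lies below 0 for both RNAs in spots rich in macrophage genes.

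The difference of each class effect between MASH and MAFL was tested as an interaction, and none passed the threshold for either RNA in edgeR, where 0.231% of all genes were called for the endothelial, 2.71% for the macrophage, 0.752% for the fibroblast, 0.0634% for the haemoglobin and 1.07% for the Thrsp classes. The smallest adjusted p was 0.0815, for Malat1 in the macrophage classes (log2 difference between groups -0.35, SE 0.11), followed by the endothelial classes (0.19, SE 0.05, edgeR adjusted p = 0.124) and the fibroblast classes (-0.29, SE 0.09, edgeR adjusted p = 0.124). These values turn on single sections of either group. Without MASH-1, so that MASH-2 alone stood for its group, the Malat1 interaction was -0.54 (macrophage), 0.27 (endothelial) and -0.41 (fibroblast). That of Neat1 was then -0.53 for the macrophage and 0.31 for the endothelial classes. Without MASH-2 the Malat1 interaction was -0.13 (macrophage), 0.10 (endothelial) and -0.17 (fibroblast). In the fibroblast classes it depended on the MAFL sections as well, at -0.093 without MAFL-1 and -0.52 without MAFL-2. The lone section is assumed to vary like the others in such a fit.

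The protein partners of the 2 RNAs were followed as lists. The 15 paraspeckle proteins, which assemble on Neat1, were all tested between the groups and none was called by edgeR, where 0.456% of all genes were called. Unadjusted, 4 had p under 0.05, beside 19.2% of all genes, and DESeq2 called 3, beside 4.49% of all genes. The list's median log2 fold change was -0.30 against 0.01 over all genes, and 3 of the 15 were above 0. With library totals as the scaling, which moved the median of all genes to 0.11, the list's median was -0.20 and 5 were above 0. Taf15, an RNA-binding protein, stood at 26.5 and 24.8 CPM in MAFL and 16.2 and 16.4 CPM in MASH (log2 fold change -0.75, edgeR adjusted p = 0.0765). Tardbp, the RNA-binding protein TDP-43, stood at 68.5, 54.3, 41.7 and 40.9 CPM (-0.67, edgeR adjusted p = 0.119).

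The 16 speckle and splicing factors, among which Malat1 resides, had a similar pattern. None was called by edgeR, 8 had an unadjusted p under 0.05 and DESeq2 called 5 (19.2% and 4.49% of all genes). The median log2 fold change was -0.39 with 2 of 16 above 0, and -0.29 with 3 above 0 under library totals. Srsf2, an SR splicing factor, stood at 104 and 96.9 CPM in MAFL and 60.0 and 61.4 CPM in MASH (-0.83, edgeR adjusted p = 0.0738). Srrm2, a structural protein of speckles, stood at 110, 113, 67.8 and 67.2 CPM (-0.82, edgeR adjusted p = 0.0781). For both genes the sections of a group lay close together and the groups did not overlap, as for Neat1. Both were named for their small p in this same contrast, which favours such values. Of all genes tested, 18.2% had both MASH sections below both MAFL sections.

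Within sections the speckle factors were lower in deep spots, as all 16 had a log2 depth ratio below 0 in each of the 4 sections, with medians of -0.23, -0.20, -0.12 and -0.33. The lowest member stood at -0.70, -0.51, -0.39 and -0.76, above Malat1 in each section. Along the zone axis their medians were 0.10, 0.04, 0.02 and -0.23, with 15 of 16 below 0 in MASH-2. Of the paraspeckle proteins, 11 to 13 of 15 had a depth ratio below 0, and their zone medians were 0.06, 0.03, 0.02 and -0.16. The median over all genes with at least 1000 UMIs was -0.10 along the zone axis of MASH-2, below 0 like those of both lists. In CPM both RNAs were lower on the periportal side of that section as well.

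The other retained RNAs were split between the groups. Of the 12 listed, 6 were tested and none was called by edgeR, while 2 had an unadjusted p under 0.05 and DESeq2 called 2 (19.2% and 4.49% of all genes). Their median log2 fold change was -0.16, and 3 of 6 were above 0. Mlxipl stood at 164, 133, 92.9 and 59.3 CPM (log2 fold change -1.05, edgeR adjusted p = 0.131) and Nlrp6 at 85.5, 86.5, 54.6 and 40.7 CPM (-0.94, edgeR adjusted p = 0.0983). Kcnq1ot1 was at -0.32 (edgeR adjusted p = 0.711) and Airn, an imprinted antisense RNA at 0.184 to 0.345 CPM, at 0.20 (edgeR adjusted p = 0.869). Of the 5 factors that cut or bind the 3′ ends of the 2 RNAs none was called, 1 had an unadjusted p under 0.05 and DESeq2 called 0. Their median log2 fold change was 0.10, and 3 of 5 were above 0. The lowest p among them was that of Elac2, the RNase Z that trims tRNA-like ends, at 21.5, 18.3, 16.5 and 16.1 CPM (-0.38, edgeR adjusted p = 0.236).

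In the spot classes 1 speckle factor and 2 retained mRNAs were called, all lower in fibroblast-rich spots: Srrm2 (-0.21, edgeR adjusted p = 0.00557), Mlxipl (-0.18, edgeR adjusted p = 0.0268) and Nlrp6 (-0.18, edgeR adjusted p = 0.0334). In that comparison 7.35% of all genes were called lower. DESeq2 called none of the 3, and with library totals their log2 differences were -0.09, -0.06 and -0.05 and did not pass.

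The genes around the pair were followed as the neighbours of the locus. Of 24 genes whose start lies within 200 kb of that of Malat1, 21 were in the tables and 17 were tested. None was called between the groups, 1 had an unadjusted p under 0.05 and DESeq2 called 0. Their median log2 fold change was 0.00 with 8 of 17 above 0, beside 0.56 for Malat1 and -1.01 for Neat1. In the spot classes Cdc42ep2, a Cdc42 effector, was higher in endothelial-rich spots (0.38, edgeR adjusted p = 0.0045). Ltbp3, which binds latent TGF-beta, was higher in fibroblast-rich (1.12, edgeR adjusted p = 1.25e-05) and macrophage-rich spots (0.68, edgeR adjusted p = 0.0322). Sipa1 was higher (0.47, edgeR adjusted p = 0.0183) and Gm42067 lower (-0.38, edgeR adjusted p = 0.0349) in fibroblast-rich spots. These are 3 of 17 neighbours in the fibroblast, 1 of 17 in the macrophage and 1 of 17 in the endothelial classes, near the 14.7%, 6.14% and 7.68% of all genes called there. With DESeq2 the Ltbp3 difference in fibroblast-rich spots was the only one of these 5 past the threshold. In the haemoglobin classes, in which Malat1 differed, no neighbour was called by edgeR or DESeq2, and 1 had an unadjusted p under 0.05, beside 8.44% of all genes.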

How the data were processed

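Visium sections of mouse liver, 2 labelled MAFL and 2 labelled MASH, were analysed from the deposited matrices. These hold counts, whole UMIs per gene and spot without scaling, which the authors made in Space Ranger 1.2.2 (named per the file headers) against the mm10 build (per the submitters' processing notes). Spot positions were not used here. Spots cover several cells each, so cell types were not assigned to them and no doublets were sought.

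The 2 genes, the gene lists, spot classes and tests were chosen with earlier results of these data known. A minimum of 500 UMIs removed 3 spots each from MAFL-1 and MASH-1, and the sections then held 32249289 to 63808230 UMIs. CPM are UMIs of a gene per 1000000 UMIs of all genes over the same spots, with exact Poisson intervals at 95% that cover counting error only. For shares of spots, variance and Spearman's rho each spot of at least 5000 UMIs was thinned at random to 5000 UMIs. Zone bins, depth bins and bins of mitochondrial share rank the spots of 1 section into 10, and list ratios needed 20 UMIs at each end.

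Counts summed per section, or per section and spot class, were fitted over all genes with edgeR 4.0.16 (quasi-likelihood test in its robust form after TMM and filterByExpr, Benjamini-Hochberg over all genes tested, threshold 0.05) in R 4.3.3, with limma 3.58.1, and with DESeq2 1.42.0 as an alternative. Class genes were left out of their own fit, and ties were broken at random with a fixed seed. Macrophage and fibroblast classes were the top 10% against the bottom 50% of spots, and the others the top against the bottom of 3 equal classes. Python 3.11.15, numpy 2.4.6, scipy 1.17.1, pandas 2.3.3 and matplotlib 3.10.9 did the rest. The fits were tested on simulated data.

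Genes most alike were the 5 with the highest median rho over thinned spots, among genes in at least 20% of the thinned spots of every section, and the 5 with the highest Pearson r over zone bins of log2(CPM + 1) less the section mean, among genes of at least 20 CPM. From each list up to 4 genes of the smallest p were eligible to be named. The values of 1 list member are not reported here. The report gives the neighbours that were called, of which each was among these. Gene positions and the promoter come from RefSeq (GRCm38.p6). Sections with the same number were checked for shared deviations before the fit with the number as a block. Alternatives were DESeq2, library totals, no filter on low counts, other totals, bins and scores, and each section left out.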

Additional observations from a re-analysis of the deposited data

How the results depend on the processing

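Each alternative changed 1 choice, and a result is named here where its direction, its side of the threshold or, for counts, its size by over 1.5 times changed. The cause of these changes was not tested. Malat1 and Neat1 between MASH and MAFL carry no test, since that contrast chose them. Over the alternatives tried, 240 values of the comparisons kept direction and side of the threshold, or moved by less than the spread between sections. Of the others, 62 were classed as moved, 21 as reversed, 14 as weaker and 8 as stronger. Values are edgeR log2 differences unless said otherwise.

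With DESeq2 the Malat1 difference in endothelial-rich spots was 0.12 and in haemoglobin-rich spots 0.18, and the Neat1 difference in fibroblast-rich spots was -0.14, none of them past the threshold. With library totals Malat1 in endothelial-rich spots (0.17) and Neat1 in fibroblast-rich spots (-0.015) lost the call, and Malat1 in macrophage-rich spots turned to 0.013. Without the bins of total UMIs, Malat1 lost the call in endothelial-rich (0.34) and haemoglobin-rich spots (0.43) and turned to 0.0057 in macrophage-rich and 0.044 in Thrsp-rich spots, and Neat1 lost it in fibroblast-rich spots (-0.10). With no filter on low counts, Neat1 passed in endothelial-rich spots (0.090) and turned to -0.0021 in haemoglobin-rich spots. With bins of zone added after seeing the data, Malat1 passed in Thrsp-rich spots (-0.12) and Neat1 turned to -0.030.

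Within 20 bins of total UMIs, also added after seeing the data, Malat1 lost the call in endothelial-rich spots (0.11), and Neat1 turned to -0.0035 in haemoglobin-rich and -0.022 in Thrsp-rich spots.

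Leaving out each section in turn gave, for MASH against MAFL, -0.44 to 1.13 for Malat1 and -1.21 to -0.85 for Neat1. In the spot classes the ranges were, for Malat1 and Neat1, 0.066 to 0.16 and 0.025 to 0.13 (endothelial), -0.17 to 0.041 and -0.18 to 0.0041 (macrophage), -0.067 to 0.15 and -0.17 to -0.089 (fibroblast), and for Neat1 -0.054 to 0.050 (haemoglobin) and -0.018 to 0.049 (Thrsp). Malat1 in haemoglobin-rich spots stayed past the threshold without each section (0.17 to 0.21). For the difference between MASH and MAFL they were 0.10 to 0.27 and -0.014 to 0.31 (endothelial), -0.54 to -0.13 and -0.53 to 0.0034 (macrophage), -0.52 to -0.093 for Malat1 (fibroblast), -0.083 to 0.23 for Neat1 (haemoglobin), and -0.069 to 0.17 and -0.066 to 0.14 (Thrsp).

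The number of genes called between the groups was 586 with DESeq2, 1153 with no filter and 20 to 535 without a section, against 62. Sections of the same number did not deviate together (r = -0.19 over 13593 genes), and with the replicate number as a block edgeR called 0 genes, 1900 with an unadjusted p under 0.05. With the pairing crossed, added after seeing the data, 779 genes were called.

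For the spot classes, DESeq2 called 300 genes (endothelial), 185 (macrophage), 591 (fibroblast), 15 (haemoglobin) and 0 (Thrsp, 171 with an unadjusted p under 0.05 and 49 by edgeR). Without a filter 1658, 111 and 188 genes were called in the macrophage, haemoglobin and Thrsp classes, and without bins of total UMIs 1407, 326 and 21. With zone bins 512 endothelial and 124 Thrsp genes were called. Without a section the counts were 584 to 803 (endothelial), 121 to 1004 (macrophage), 746 to 1682 (fibroblast), 17 to 416 (haemoglobin) and 10 to 133 (Thrsp). For the differences between groups DESeq2 called 2, 104, 17, 0 (36 with an unadjusted p under 0.05 and 8 by edgeR) and 47 genes in the same order, and without a section 14 to 107, 93 to 946, 23 to 379, 5 to 172 and 1 to 260 genes were called.

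In UMIs per spot in place of CPM, added after seeing the data, the mean over sections was 0.036 for the zone ratio of Neat1, and 0.17 and 0.95 for the depth ratios of Malat1 and Neat1. In spots of 15000 to 20000 UMIs the log2 difference of Neat1 between MASH and MAFL was -0.73. With mitochondrially encoded genes left out of the totals, the median rho with the mitochondrial share was 0.25 for Malat1, where MAFL-1 turned from -0.05 to 0.098, and 0.23 for Neat1. In that setting the total of a thinned spot falls as its mitochondrial share rises. Spots with the same count of the gene above 0 are then ordered by that share. This raises rho by construction, so nothing is read from these values. Depth limits the values per spot, where a mean of 2.86 to 10.5 UMIs leaves counting error large. Over sections it is small, and 2 sections a group limit the precision.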
